A study of Mus musculus with 16 samples.

Results

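The comparison set 4 ilea of female mice lacking Bcl6 in the liver (female LKO) against 4 ilea of female controls (female WT). The members were the 8 libraries whose titles name a female of either genotype, out of 16 in the series, and every gene of the table was considered. Of 24940 genes, 15298 had enough counts in these 8 libraries to be tested. The series measured how deletion of a hepatic repressor changes gene expression in the gut of each sex.

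All 8 mice were C57BL/6 and homozygous for the floxed Bcl6 allele (Bcl6 fl/fl), so WT animals also carried the loxP sites. LKO animals carried Alb-cre in addition, a Cre recombinase under the albumin promoter that is active in hepatocytes. The tissue studied was therefore not the tissue in which the gene was deleted. Ages were not given in the sources used here. The study's methods state that animals were fed ad libitum or fasted for a few hours, without naming the state of each animal. Each library came from a short piece of terminal ileum next to the cecum, which contains epithelium, muscle, lymphoid follicles and some attached fat.

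BCL6 is a zinc-finger transcriptional repressor best known from germinal centre B cells, and in hepatocytes it restrains genes of lipid use. The terminal ileum takes bile acids back up from the gut lumen. There the nuclear receptor FXR senses them and induces the hormone FGF15, which travels to the liver and represses bile acid synthesis. Bile acids also solubilise dietary fat and cholesterol, so enterocyte genes for sterol synthesis and fat handling are sensitive to the sterol and lipid that reach the cell.

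The gene counts of 7 libraries summed to 16.3 M to 18.6 M each, while replicate 1 of the LKO females was deeper, at 60.3 M. A gene without a count could thus have had up to 3 counts, or 0.0497 to 0.184 on the counts-per-million (CPM) scale, by counting error alone. Levels below are CPM scaled by the trimmed mean of M-values, and fold changes are log2 ratios of LKO to WT with their standard error (SE). The ileal genes Fabp6, Slc10a2, Slc51a and Fgf15 were detected in every library, Xist lay between 376 and 546 CPM, and Ddx3y had 0 counts in all 8. Replicates differed by more than counting noise in all 12 pairs of libraries within a group (chi-square per degree of freedom 11.3 to 32.4). The labels do not say whether animals shared a litter or cage. LKO replicates 2 and 3 stood apart from the rest along the first principal component (49.9% of the variance of the 1000 most variable genes), with higher B cell follicle transcripts as described below.

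Across all genes the difference between the genotypes was small. With the quasi-likelihood test of edgeR, 6 genes (0.0392% of those tested) passed at an adjusted p under 0.05, of which 3 had risen and 3 had fallen in LKO (0.0196% each way). An unadjusted p below 0.05 was reached by 1790 genes, 11.7% of all (758 higher and 1032 lower). Under upper-quartile scaling this split turned to 989 higher and 843 lower. DESeq2, the tool the study names, called 154 genes (0.764% of 20146), 53 higher (0.263%) and 101 lower (0.501%), among them the 6. The groups did not overlap in 963 genes (6.29%), and the median log2 fold change over all genes was 0.01. The edgeR count rested on every library: it was 1, 4, 1 and 1 without WT replicates 1, 2, 3 and 4, and 0, 2, 0 and 0 without LKO replicates 1, 2, 3 and 4. Without LKO replicates 2 and 3 together it was 3. With the number in the library titles as a covariate it was 6, of which 2 were among the 6 as reported, and with sets of neighbouring title numbers as a factor it was 4, of which 0 were. The DESeq2 count lay between 62 (without WT replicate 1) and 397 (without LKO replicate 4), and was 63 without WT replicate 3, 92, 74 and 93 without LKO replicates 1, 2 and 3, and 93 without LKO replicates 2 and 3.

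The named calls of edgeR were genes of metabolism. Akr1c14, Aldh1a1 and Mir5114, a record inside the desaturase gene Scd2, fell in LKO, and Phgdh of serine synthesis and Acadl of fatty acid oxidation rose. Below, a gene is said to have risen or fallen only where edgeR passed it over all genes tested. Where DESeq2 alone passed a gene this is stated, and other genes are given by their values.

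Akr1c14, which encodes a 3-alpha-hydroxysteroid dehydrogenase of the aldo-keto reductase family, had the smallest p. It lies on chromosome 13 (mm10, 4059591 to 4090422, plus strand). The 4 WT libraries stood at 64.7, 47.6, 68.1 and 61.1 CPM and the 4 LKO libraries at 35.2, 31.8, 30.6 and 36.2 CPM. Every LKO library lay below every WT library, and the spread within LKO was narrow (SD 2.64 CPM against 9 CPM in WT, n = 4 each). The gene fell by 0.85 on the log2 scale (SE 0.10, edgeR adjusted p 0.0277), which made WT 1.80-fold higher. It passed DESeq2 with any 1 library left out. The related genes Akr1c12 and Akr1c13 lie in the same gene cluster, and reads of such close relatives can be misassigned. They stood lower by log2 fold changes of -0.23 (SE 0.07) for Akr1c12 and -0.39 (SE 0.12) for Akr1c13, without overlap between the groups, and did not pass either test (edgeR adjusted p 0.313 for both).

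Aldh1a1, a retinaldehyde dehydrogenase that makes retinoic acid, fell as well (chromosome 19, 20492583 to 20643463, plus strand). Its levels were 244, 200, 212 and 257 CPM in WT and 159, 162, 155 and 154 CPM in LKO. The LKO libraries lay close together and below the lowest WT library. The log2 fold change was -0.53 (SE 0.08, edgeR adjusted p 0.0431). Lrat, which esterifies retinol for storage, had a log2 fold change of -0.51 (SE 0.17, adjusted p 0.319) with overlapping groups. The list of steroid and retinoid conversion, like the gene lists below, was chosen with earlier results of these data known. It is not independent of the data. Of its 27 tested genes, 2 fell (Akr1c14 and Aldh1a1, where 0.0196% of all genes fell). At an unadjusted p below 0.05, 9 had lower levels (6.75% of all genes) and 1 a higher level (4.95% of all genes). The median log2 fold change of -0.09 lay between -0.05 (without LKO replicate 4) and -0.20 (without WT replicate 3) with 1 library left out. It was -0.06 without WT replicate 4 and -0.15, -0.14 and -0.15 without WT replicate 2 and LKO replicates 2 and 3.

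A pair of records from the same piece of chromosome 19 had lower levels in LKO. Scd2 (44293676 to 44306862, plus strand) encodes a stearoyl-CoA desaturase, which puts the double bond into saturated fatty acids. Its levels were 922, 717, 518 and 584 CPM in WT and 306, 302, 282 and 300 CPM in LKO. WT animals differed widely among themselves (SD 178 CPM), while the 4 LKO animals lay close together (SD 10.6 CPM). The log2 fold change was -1.20 (SE 0.16). DESeq2 passed the gene (adjusted p 5.48e-12), also with any 1 library left out, and edgeR did not (adjusted p 0.0555).

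Mir5114, the gene of a microRNA, fell by 1.83 on the log2 scale (SE 0.26, edgeR adjusted p 0.0431). Its 4 WT libraries stood at 11, 6.84, 6.75 and 4.12 CPM and its 4 LKO libraries at 1.86, 2.18, 2.01 and 2.06 CPM. WT replicate 1 was the highest library for this record and for Scd2. The annotated microRNA (44303171 to 44303192, plus strand) lies inside the last exon of Scd2 in GENCODE vM21, in coding sequence of 1 transcript model and in untranslated sequence of another. The libraries were made from polyadenylated RNA, in which a mature microRNA is not captured, so reads of Mir5114 and of Scd2 mRNA cannot be told apart. The counted record ran from 44303171 to 44303231. The sequence below is shown because it is the annotated product inside that record. It is the mature RefSeq sequence (GRCm38.p6), with the seed, bases 2 to 8, in capitals.
mmu-miR-5114: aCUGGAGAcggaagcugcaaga

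Genes of cholesterol synthesis and uptake were lower in LKO across the pathway. All 22 tested members of the list had a log2 fold change below 0, where 48.2% of all genes did. In this list 17 members had an unadjusted p below 0.05 (6.75% of all genes were lower at that level), 16 had groups without overlap (3.22% of all genes), 9 passed DESeq2 (0.66%) and 0 passed edgeR, where the smallest adjusted p was 0.0555. The shifts were small, with a median log2 fold change of -0.22. Alternative fits with all 8 libraries, and fits with any 1 library left out, changed this median little. Each change was smaller than the SD between replicates of the list's mean log2 level (0.0478).

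Stard4, a carrier of free sterol between membranes, stood at 280, 244, 300 and 283 CPM in WT and at 206, 203, 208 and 206 CPM in LKO. No LKO library reached the lowest WT library. Its log2 fold change was -0.43 (SE 0.07, DESeq2 adjusted p 3.12e-06, edgeR 0.0555).

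Enzymes at the start, middle and end of the pathway had similar values. Hmgcs1, which makes HMG-CoA, stood at 515, 487, 502 and 471 CPM in WT and at 370, 430, 386 and 416 CPM in LKO. Lss, which closes the sterol ring system, had a log2 fold change of -0.36 (SE 0.07), and Dhcr7, the last enzyme of cholesterol synthesis, one of -0.44 (SE 0.08). DESeq2 passed these 3 genes (adjusted p 0.00262, 0.00174 and 0.00106) and edgeR did not (0.163, 0.0983 and 0.0983). The groups did not overlap in any of them. Insig1, the sterol sensor that holds the SREBP factors in the endoplasmic reticulum, had a log2 fold change of -0.44 (SE 0.11, DESeq2 adjusted p 0.0399, a call held in 3 of 8 fits without 1 library).

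Sterol-dependent transcription acts through SREBP2, which binds sterol regulatory elements near the start of its target genes. The letters TCACNCCA, a core of that element, were searched on both strands from 250 bases before to 50 after the start in RefSeq (GRCm38.p6). Of 27025 genes with such a window, 4.97% held the letters, and of the 14 cholesterol genes with a window 3 did. Hmgcs1 is printed below as the example among the genes described, from 150 bases before its start to the start, with the match in capitals (chr13:119690201-119690350, plus strand). The match is a description of the sequence, and no binding was measured.
Hmgcs1: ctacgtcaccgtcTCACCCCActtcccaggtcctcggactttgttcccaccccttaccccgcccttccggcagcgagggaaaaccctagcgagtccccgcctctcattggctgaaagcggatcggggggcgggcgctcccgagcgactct

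**Figure D1:**
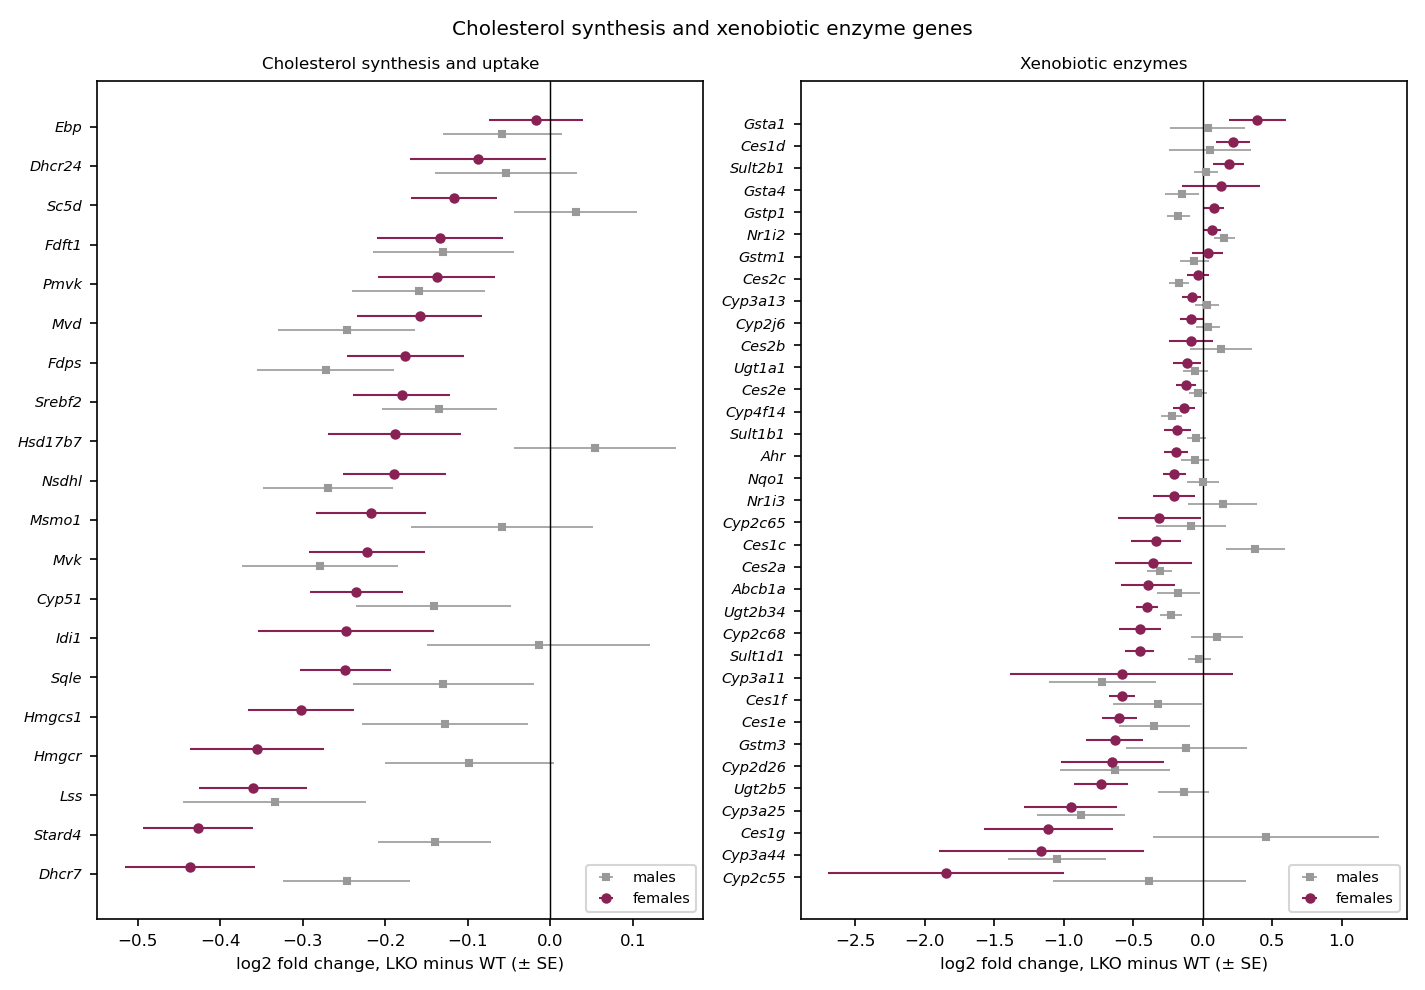
Log2 fold change of LKO against WT (x axis, ± SE) for 20 of the 22 genes of the cholesterol list and 35 xenobiotic enzymes and their receptors (y axis), in females (circles) and males (grey squares), 4 animals per group. All 20 circles on the left lie below 0, with Dhcr7 at -0.44, and 28 of 35 circles on the right do.

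Other lipid genes did not share one direction. In the list of fatty acid synthesis and desaturation 9 of 18 tested genes lay above 0 and 9 below. Acacb, the acetyl-CoA carboxylase at the mitochondrial surface whose product limits fatty acid import, stood at 9.66, 10.2, 9.39 and 10.8 CPM in WT and 15.8, 22.9, 15.3 and 14.3 CPM in LKO. All LKO libraries lay above all WT libraries (log2 fold change 0.76, SE 0.14, DESeq2 adjusted p 0.000887, edgeR 0.104). Elovl5 and Fads2, which lengthen and desaturate polyunsaturated fatty acids, had values of -0.33 (SE 0.09) and -0.28 (SE 0.09) on the log2 scale, and neither passed.

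Acadl, the long-chain acyl-CoA dehydrogenase of mitochondrial beta-oxidation, rose (chromosome 1, 66830839 to 66863309, minus strand). It stood at 122, 129, 135 and 127 CPM in WT and at 169, 164, 168 and 162 CPM in LKO. The 2 groups were tight and far apart relative to their SDs of 5.49 and 3.28 CPM. The log2 fold change was 0.37 (SE 0.05, edgeR adjusted p 0.0431). Acadvl, its very-long-chain counterpart, had a log2 fold change of 0.24 (SE 0.06, DESeq2 adjusted p 0.0269, a call held in 1 of 8 fits without 1 library), and Hadha, a subunit of the trifunctional protein, one of 0.22 (SE 0.07, DESeq2 adjusted p 0.119). In the list of mitochondrial fatty acid oxidation 9 of 20 tested genes had an unadjusted p below 0.05 with higher levels (4.95% of all genes did) and 3 with lower levels, among them Acad11 with a log2 fold change of -0.28 (SE 0.08). The median was 0.09. It was 0.04 without LKO replicate 1, 0.14 without LKO replicate 3 and 0.18 without LKO replicates 2 and 3.

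Genes under PPAR alpha and of fat absorption were mostly higher in LKO, and the medians of both lists rested on LKO replicates 2 and 3. Creb3l3, a membrane-bound transcription factor of lipid handling, stood at 59.4, 68.4, 65.2 and 80.3 CPM in WT and at 95.8, 138, 112 and 87.0 CPM in LKO (log2 fold change 0.66, SE 0.15, DESeq2 adjusted p 0.00174, edgeR 0.206). Pex11a, which drives peroxisome proliferation, had a log2 fold change of 0.40 (SE 0.08, DESeq2 adjusted p 0.00527). Ppara itself had -0.24 (SE 0.09) and passed neither test. Apoa4, an apolipoprotein of chylomicrons, stood at 99.6, 120, 127 and 76.6 CPM in WT and at 153, 337, 348 and 183 CPM in LKO. Its groups did not overlap, and the highest values were those of LKO replicates 2 and 3 (log2 fold change 1.27, SE 0.33, DESeq2 adjusted p 0.02, edgeR 0.295). The DESeq2 call of Apoa4 held in 3 of 8 fits without 1 library and also without LKO replicates 2 and 3. That of Creb3l3 held in all 8 and was lost without these 2 libraries. Dgat2, which makes triglyceride, had 0.45 (SE 0.11, DESeq2 adjusted p 0.0264, a call held in 3 of 8 such fits), and Cd36, a fatty acid carrier, 0.51 (SE 0.19, passing neither).

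In the fat absorption list 18 of 20 tested genes lay above 0 (51.8% of all genes did), with a median of 0.20, 5 genes higher at an unadjusted p below 0.05 (4.95% of all genes) and 2 passing DESeq2 with higher levels (0.34%). Without LKO replicates 2 and 3 the median was -0.05, with 7 of 20 above 0. It was 0.08, 0.10 and 0.33 without WT replicates 1, 2 and 4, and 0.07 and 0.12 without LKO replicates 2 and 3 in turn. With the number in the library titles as a covariate it was 0.03, with 11 of 20 above 0. The PPAR alpha list had a median of 0.24 with 15 of 21 above 0, and -0.01 with 10 of 21 above 0 without these 2 libraries. It was 0.10, 0.15 and 0.11 without LKO replicates 1, 2 and 3 in turn, and 0.13 without WT replicate 2. The study reported fat digestion and absorption as an enriched pathway in the male ilea of this series. In the females it reported no such enrichment of lipid absorption. Both lists were chosen with earlier results of these data known, so they are not independent of the data. The follicle and fat markers of the same 2 libraries are given below, and their part in these values was not tested.

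In the serine, glycine and folate list 1 of 17 tested genes rose, Phgdh (0.0196% of all genes rose). In this list 3 others passed DESeq2 with higher levels (0.34% of all genes). Cells build serine from glycolytic 3-phosphoglycerate through PHGDH, PSAT1 and PSPH, and mitochondrial SHMT2 and MTHFD2 then turn serine into glycine and one-carbon units for nucleotide synthesis. Phgdh (chromosome 3, 98313171 to 98339969, minus strand) stood at 6.91, 8.19, 6.02 and 7.75 CPM in WT and at 15.9, 12.1, 13.7 and 15.1 CPM in LKO. The lowest LKO library lay well above the highest WT library. The gene rose 1.98-fold (log2 fold change 0.98, SE 0.13, edgeR adjusted p 0.0277).

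Mthfd2 stood at 19.4, 18, 15.1 and 14.4 CPM in WT and 30.8, 24.4, 27.0 and 25.8 CPM in LKO (log2 fold change 0.70, SE 0.11, DESeq2 adjusted p 2.28e-05, edgeR 0.0555). Psat1 had a log2 fold change of 0.52 (SE 0.10, DESeq2 adjusted p 0.00174) and Shmt2 one of 0.37 (SE 0.06, DESeq2 adjusted p 0.000399), neither passing edgeR (0.104 and 0.0686). In all 3 genes the groups did not overlap. Slc6a9, a glycine carrier, stood at 22.6, 23.9, 22.0 and 20.1 CPM in WT and at 30.2, 29.4, 29.4 and 29.3 CPM in LKO (log2 fold change 0.42, SE 0.07, DESeq2 adjusted p 0.000664, edgeR 0.0776).

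Aldh1l1, the cytosolic enzyme that burns one-carbon units to carbon dioxide, stood at 184, 188, 214 and 187 CPM in WT and 155, 170, 168 and 162 CPM in LKO (log2 fold change -0.24, SE 0.06, DESeq2 adjusted p 0.0495, edgeR 0.241). That DESeq2 call was lost with any 1 library left out. Over the whole list 10 of 17 tested genes lay above 0 and 7 below, with a median of 0.08, which was 0.0086 without WT replicate 3 and 0.04 without LKO replicate 1 or 3. The list was chosen with earlier results of these data known, and it is not independent of the data.

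Most ATF4 targets and cytosolic synthetases had values above 0. ATF4 is the transcription factor that responds to a shortage of amino acids, and its targets include asparagine synthetase, serine enzymes and many aminoacyl-tRNA synthetases, which load tRNAs. Asns, the asparagine synthetase, stood at 49.3, 55.4, 45.4 and 47.7 CPM in WT and at 82.1, 72.5, 63.2 and 68.5 CPM in LKO (chromosome 6, 7675171 to 7693182, minus strand). The groups did not overlap, and the log2 fold change was 0.54 (SE 0.09, DESeq2 adjusted p 0.000143, edgeR 0.0555). Atf5, a transcription factor downstream of ATF4, had a log2 fold change of 0.58 (SE 0.12, DESeq2 adjusted p 0.00435, edgeR 0.149).

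Cars, the cysteinyl-tRNA synthetase, had the smallest p of the synthetases. It stood at 36.0, 39.9, 34.1 and 37.3 CPM in WT and 51.6, 49.0, 48.0 and 49.5 CPM in LKO. No LKO library came near the WT range (log2 fold change 0.43, SE 0.07, DESeq2 adjusted p 3.27e-05, edgeR 0.0526). Mars, Aars and Gars, for methionine, alanine and glycine, had log2 fold changes of 0.39, 0.29 and 0.27 (SE 0.07, 0.06 and 0.06), all passing DESeq2 (adjusted p 0.00272, 0.00168 and 0.0154) and none edgeR (0.104, 0.124 and 0.189). The DESeq2 call of Gars held in 3 of 8 fits without 1 library. Sars, for serine, had 0.22 (SE 0.06) and passed neither.

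The list of cytosolic synthetases was added after these values had been seen. In it 11 of 20 genes had an unadjusted p below 0.05 with higher levels (4.95% of all genes), 0 with lower levels, 10 had LKO above WT without overlap (3.07% of all genes), and the median was 0.16. The mitochondrial synthetases, added at the same time, had 1 of 17 at that level and a median of 0.02. Among 20 tested ATF4 targets 15 lay above 0 (51.8% of all genes did), with a median of 0.20. In this list 6 had an unadjusted p below 0.05 with higher levels (4.95% of all genes) and 4 passed DESeq2 with higher levels (0.34%). Under voom the median of the ATF4 list was 0.13. The stress genes of the list had values near 0 or wide errors: Atf4, Ddit3, Trib3 and Chac1, named here after their values were seen, had log2 fold changes of -0.0029, 0.04, 0.19 and 0.47 (edgeR adjusted p 0.992, 0.915, 0.773 and 0.71).

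ATF4 pairs with C/EBP factors on a composite element. Its core letters TGATGNAA were searched on both strands in the same RefSeq windows, where 4.51% of 27025 genes held them. They were present in 9 of 20 genes of the ATF4 list and in 5 of 12 cytosolic synthetases with a window. The 9 were Aars, Asns, Atf3, Chac1, Fgf21, Nupr1, Slc7a11, Trib3 and Vldlr. Trib3 and Chac1, which did not pass edgeR, thus held the letters too. Whether the letters go with the levels was not tested, and no binding was measured. The 150 bases before the start are printed for Asns (chr6:7693210-7693359, minus strand), Aars (chr8:111033692-111033841, plus strand) and Gars (chr6:55037851-55038000, plus strand), because these 3 genes had higher levels and held the letters. Capitals mark the match, which reads on the gene's strand in Asns and on the other strand in Aars and Gars.
Asns: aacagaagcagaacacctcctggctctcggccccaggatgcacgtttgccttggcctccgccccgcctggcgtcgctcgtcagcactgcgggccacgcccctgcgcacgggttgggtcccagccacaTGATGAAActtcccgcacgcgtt
Aars: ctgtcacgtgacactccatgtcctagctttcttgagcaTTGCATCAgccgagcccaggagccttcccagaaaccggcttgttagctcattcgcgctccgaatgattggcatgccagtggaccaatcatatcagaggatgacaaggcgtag
Gars: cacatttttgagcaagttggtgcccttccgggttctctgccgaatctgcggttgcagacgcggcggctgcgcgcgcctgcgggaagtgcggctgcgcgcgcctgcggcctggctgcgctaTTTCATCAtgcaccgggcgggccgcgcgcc
The match began 23 bases before the start in Asns, 112 in Aars and 30 in Gars. Of 14 genes of the serine list with a window, 1 held the letters.

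**Figure D2:**
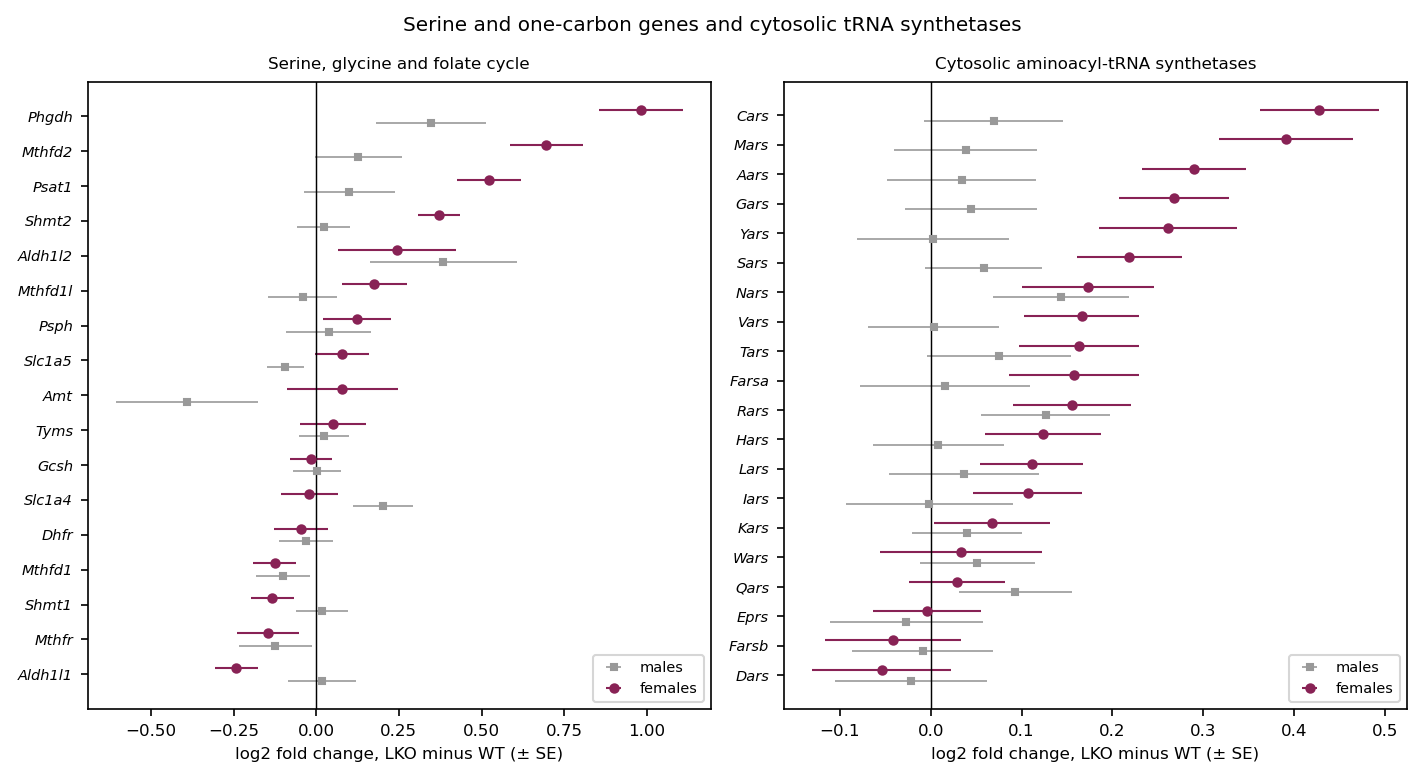
Log2 fold change of LKO against WT (x axis, ± SE) for 17 genes of the serine, glycine and folate cycle and 20 cytosolic aminoacyl-tRNA synthetases (y axis), in females (circles) and males (grey squares), 4 animals per group. Phgdh, Mthfd2, Psat1 and Shmt2 stand at the right in females, and 17 of 20 synthetases lie above 0.

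Drug-metabolising enzymes were mostly lower in LKO. Of 35 tested xenobiotic genes 28 lay below 0, 11 had an unadjusted p below 0.05 with lower levels (6.75% of all genes) and 0 with higher levels, 5 passed DESeq2 (0.66% of all genes), 0 passed edgeR, and the median was -0.21. Ces1f, a carboxylesterase, stood at 79.8, 83.1, 95.6 and 76.9 CPM in WT and 53.7, 65.8, 49.1 and 55.8 CPM in LKO, without overlap (log2 fold change -0.58, SE 0.09, DESeq2 adjusted p 3.02e-05, edgeR 0.0555). Ugt2b34, a glucuronosyltransferase, had -0.40 (SE 0.08), Sult1d1, a sulfotransferase, -0.45 (SE 0.10), and Ces1e and Ugt2b5 had -0.60 (SE 0.13) and -0.73 (SE 0.19). DESeq2 passed these 4 (adjusted p 0.00174, 0.0157, 0.0116 and 0.033), and the calls held in 8, 3, 4 and 3 of 8 fits without 1 library. These families hold near-identical neighbours, so their counts are uncertain.

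Esrrg, the estrogen-related receptor gamma, an orphan nuclear receptor of oxidative metabolism, stood at 6.32, 6.62, 7.53 and 5.02 CPM in WT and 2.65, 3.49, 2.12 and 3.41 CPM in LKO (chromosome 1, 187997827 to 188214884, plus strand). Every LKO library lay below every WT library (log2 fold change -1.14, SE 0.19, DESeq2 adjusted p 2.14e-05, edgeR 0.0555). Its coactivator Ppargc1a and the corepressor Nrip1 had -0.39 (SE 0.13) and -0.41 (SE 0.12) without overlap and passed neither test, and its relative Esrra had 0.07 (SE 0.06). Slc5a4a, a member of the sodium-glucose carrier family, stood at 4.33, 4.66, 7.20 and 6.52 CPM in WT and 1.04, 2.49, 2.35 and 0.976 CPM in LKO (log2 fold change -1.80, SE 0.32, DESeq2 adjusted p 2.14e-05, edgeR 0.108). Cubn, the ileal receptor for vitamin B12 bound to intrinsic factor, had -0.60 (SE 0.17, DESeq2 adjusted p 0.0198), and Enpep, a brush border aminopeptidase, -0.35 (SE 0.09, DESeq2 adjusted p 0.0278). These calls held in 5 and 4 of 8 fits without 1 library.

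Further genes that DESeq2 passed and edgeR did not, all without overlap between the groups, had varied roles. Those with lower levels were Pla2g3, a secreted phospholipase A2 (log2 fold change -0.92, SE 0.17), Entpd5, an endoplasmic reticulum nucleotidase (-0.38, SE 0.06), Bag4, a co-chaperone (-0.40, SE 0.07), Ntn4, a netrin of basement membranes (-0.51, SE 0.10), Tnik, a kinase of Wnt signalling (-0.34, SE 0.07), Ypel2 (-0.49, SE 0.09) and Exph5 (-0.45, SE 0.09). Those with higher levels were Slc25a22, a mitochondrial glutamate carrier (0.40, SE 0.08), Cyba, a subunit of the NADPH oxidase (0.28, SE 0.05), Marcksl1 (0.76, SE 0.13), Il3ra, the alpha chain of the interleukin-3 receptor (0.75, SE 0.15), and Gml (1.19, SE 0.23). Tnik and Ntn4 kept the call in 5 and 4 of the 8 fits that left out 1 library. The 35 genes taken from the calls of either tool in the order of their p were 17 with higher and 18 with lower levels. Of these, 30 passed DESeq2 in each of these 8 fits, 24 passed without LKO replicates 2 and 3 and 20 without these and WT replicate 3.

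**Figure D3:**
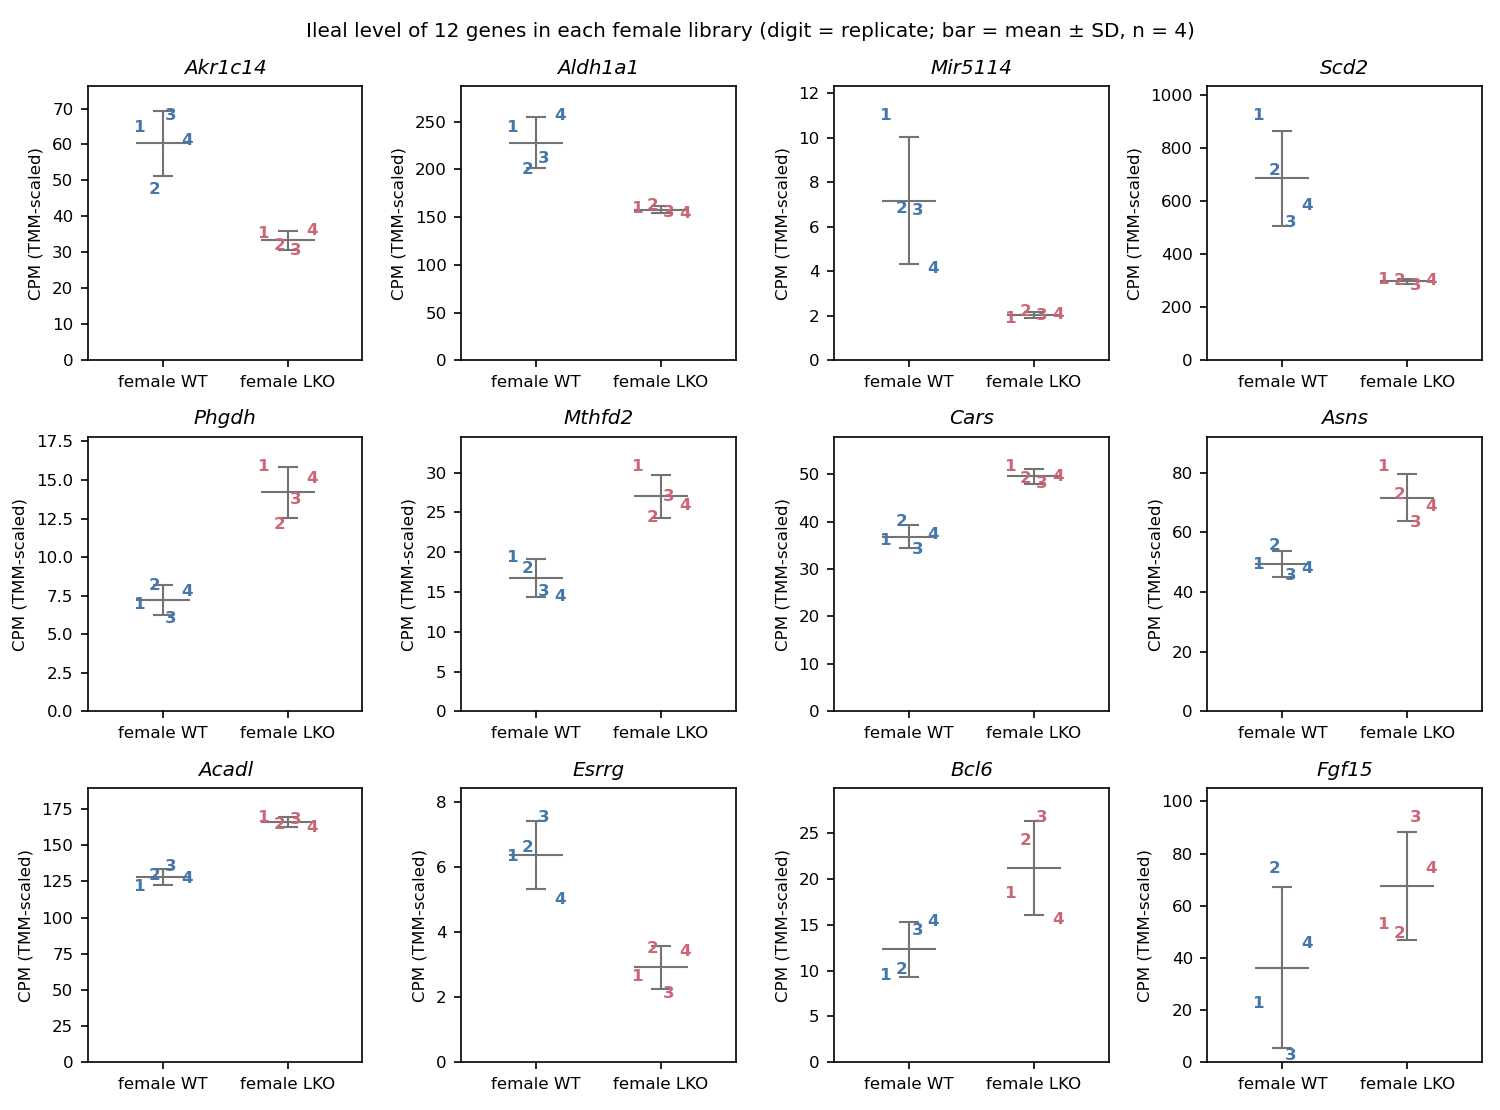
Level of 12 genes in each of the 8 female libraries (y axis, CPM from 0, x axis, genotype). Digits are replicate numbers, and bars are the mean and SD of 4. WT and LKO digits do not overlap in 11 of the 12 genes, and Fgf15 is the exception, with WT digits from 2.75 to 74.3 CPM. Apart from Bcl6 and Fgf15, the genes were picked as edgeR calls or as DESeq2 calls without overlap, so this number carries no weight. Over all genes tested 6.29% had groups without overlap.

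Bile acid genes were the readout the study addressed in the ileum. None of the 9 tested genes of the FXR and bile acid list passed edgeR or DESeq2, and the list's median log2 fold change was 0.03. At an unadjusted p below 0.05 there was 1 gene, where 11.7% of all genes reached that level. Fgf15 (chromosome 7, 144896532 to 144900951, plus strand) stood at 22.4, 74.3, 2.75 and 45.5 CPM in WT and at 52.8, 49.3, 93.9 and 74.3 CPM in LKO. The groups overlapped, with 3 WT animals below every LKO animal and LKO replicate 3 above every WT animal. The log2 fold change was 0.89 (SE 0.79, edgeR adjusted p 0.678), with a 95% interval from -1.03 to 2.82 on 6 residual degrees of freedom. The male value of 2.69 (SE 0.73) lay near the upper limit of this interval. Whether it lies inside depends on the degrees of freedom taken, which can be more in the edgeR test.

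Slc51b, which with Slc51a forms the carrier that passes bile acids on to the blood, had the smallest p of the list. It stood at 230, 249, 227 and 298 CPM in WT and at 285, 358, 300 and 314 CPM in LKO, with overlap (log2 fold change 0.32, SE 0.10, edgeR adjusted p 0.289). Slc51a had 0.14 (SE 0.10), the cytosolic bile acid binder Fabp6 -0.10 (SE 0.14), the apical uptake carrier Slc10a2 -0.04 (SE 0.22), and Nr1h4, the gene of FXR, 0.03 (SE 0.08). The exporters Abcc3 and Abcc2 had -0.27 (SE 0.14) and -0.23 (SE 0.41), and the bile acid receptor Gpbar1 had 0.07 (SE 0.39). Nr0b2, the gene of the repressor SHP, reached 0.725 CPM at most, and the liver exporter Abcb11 0.39 CPM. Both were too low to be tested.

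The targeted gene itself was detected in the ileum of both genotypes, where the albumin promoter is not expected to drive Cre. Bcl6 (chromosome 16, 23965050 to 23981283, minus strand) stood at 9.43, 10.1, 14.4 and 15.3 CPM in WT and 18.3, 24.1, 26.7 and 15.5 CPM in LKO. The groups did not overlap, but WT replicate 4 lay just under LKO replicate 4. The log2 fold change was 0.77 (SE 0.21). DESeq2 passed it (adjusted p 0.0198) and edgeR did not (0.285), and the DESeq2 call was kept in 4 of 8 fits without 1 library and was lost without LKO replicates 2 and 3, its 2 highest libraries. These are the libraries with the most B cell follicle RNA, a tissue in which Bcl6 is expressed, and its part in the value was not tested. Genes of the BCL6 and STAT5 axis had small values, Prlr, the prolactin receptor, with -0.34 (SE 0.08, DESeq2 adjusted p 0.0225) and Socs2, a STAT5 target, with -0.23 (SE 0.06, DESeq2 adjusted p 0.0464). These calls held in 3 and 1 of 8 fits without 1 library, and neither without LKO replicates 2 and 3.

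Markers of the cell types in the tissue were compared next, since a bulk piece mixes them, and fewer cells of a type and less RNA per cell cannot be told apart. Markers of follicular B cells summed to 65.4, 70.4, 139 and 65.5 CPM in WT and to 70.6, 361.5, 684.6 and 65.9 CPM in LKO. LKO replicates 2 and 3 were far above the others and LKO replicates 1 and 4 lay with WT. All 17 tested markers had a log2 fold change above 0 (median 1.56), 0 had an unadjusted p below 0.05, and without LKO replicates 2 and 3 the median was -0.32. Cd79a, a chain of the B cell receptor, stood at 12.4, 11.7, 16.5 and 8.92 CPM in WT and 12.7, 43.1, 80.6 and 12.1 CPM in LKO.

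Adipocyte markers summed to 323, 214, 227 and 297 CPM in WT and to 362, 545, 401 and 281 CPM in LKO, highest in LKO replicate 2. Of 10 markers 9 lay above 0 (median 0.72), 5 had higher levels at an unadjusted p below 0.05 (4.95% of all genes), and without LKO replicates 2 and 3 the median was 0.34. Plin4 and Cidec, lipid droplet proteins, had values of 0.46 (SE 0.12) and 0.69 (SE 0.22) on the log2 scale and passed DESeq2 (adjusted p 0.0459 and 0.0339). These calls held in 2 and 3 of 8 fits without 1 library and were lost without LKO replicates 2 and 3. Enterocytes also express lipid droplet genes. The part of attached fat in the values of the fat absorption, PPAR alpha and fatty acid lists was not tested.

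Most endocrine and mucous markers had lower values in LKO. Nts, the neurotensin gene of ileal endocrine cells, stood at 48.7, 49.6, 50.4 and 55.7 CPM in WT and 38.0, 46.4, 40.0 and 37.6 CPM in LKO, without overlap (log2 fold change -0.34, SE 0.08, DESeq2 adjusted p 0.0306, edgeR 0.195). The DESeq2 call of Nts held in 1 of 8 fits without 1 library. Chgb, a secretory granule protein, and Tph1, which makes serotonin, had -0.33 (SE 0.08) and -0.34 (SE 0.09) and passed neither. Ghrl, the ghrelin gene, went the other way. It had raw counts of 32, 31, 39 and 30 in WT and 153, 56, 60 and 38 in LKO, where replicate 1 was the deeper library. In the endocrine list 13 of 19 tested genes lay below 0 and 6 above, with a median of -0.15. At an unadjusted p below 0.05, 4 had lower levels (6.75% of all genes) against 1 with a higher level (4.95%). Without LKO replicates 2 and 3 the median was -0.09. In the goblet cell list 13 of 16 lay below 0 with a median of -0.08, and Muc2, the main intestinal mucin, had -0.19 (SE 0.07, edgeR adjusted p 0.348).

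Further lists had values as follows. Paneth cell markers lay above 0 in 18 of 22 (median 0.14, and 0.02 without WT replicate 1), with 0 at an unadjusted p below 0.05. Tuft cell markers lay above 0 in 11 of 14 (median 0.30), also with 0 at that level. Crypt stem cell and Wnt genes lay below 0 in 14 of 18 (median -0.11), with Lgr5 at -0.24 (SE 0.10). Markers of absorptive enterocytes had a median of 0.05 and proliferation genes one of 0.02. In the TNF and NF-kB list 17 of 23 lay above 0 (median 0.23) and 7 had higher levels at an unadjusted p below 0.05 (4.95% of all genes). Without LKO replicate 3 the median was 0.14 with 3 at that level, and without LKO replicates 2 and 3 it was 0.14. In this list Nfkbia, the inhibitor that NF-kB induces, had 0.34 (SE 0.07, DESeq2 adjusted p 0.0102, edgeR 0.162, the DESeq2 call held in 4 of 8 fits without 1 library). Hepatocyte markers summed to between 46.7 and 63.2 CPM, and 5 of 13 were high enough to be tested.

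**Figure D4:**
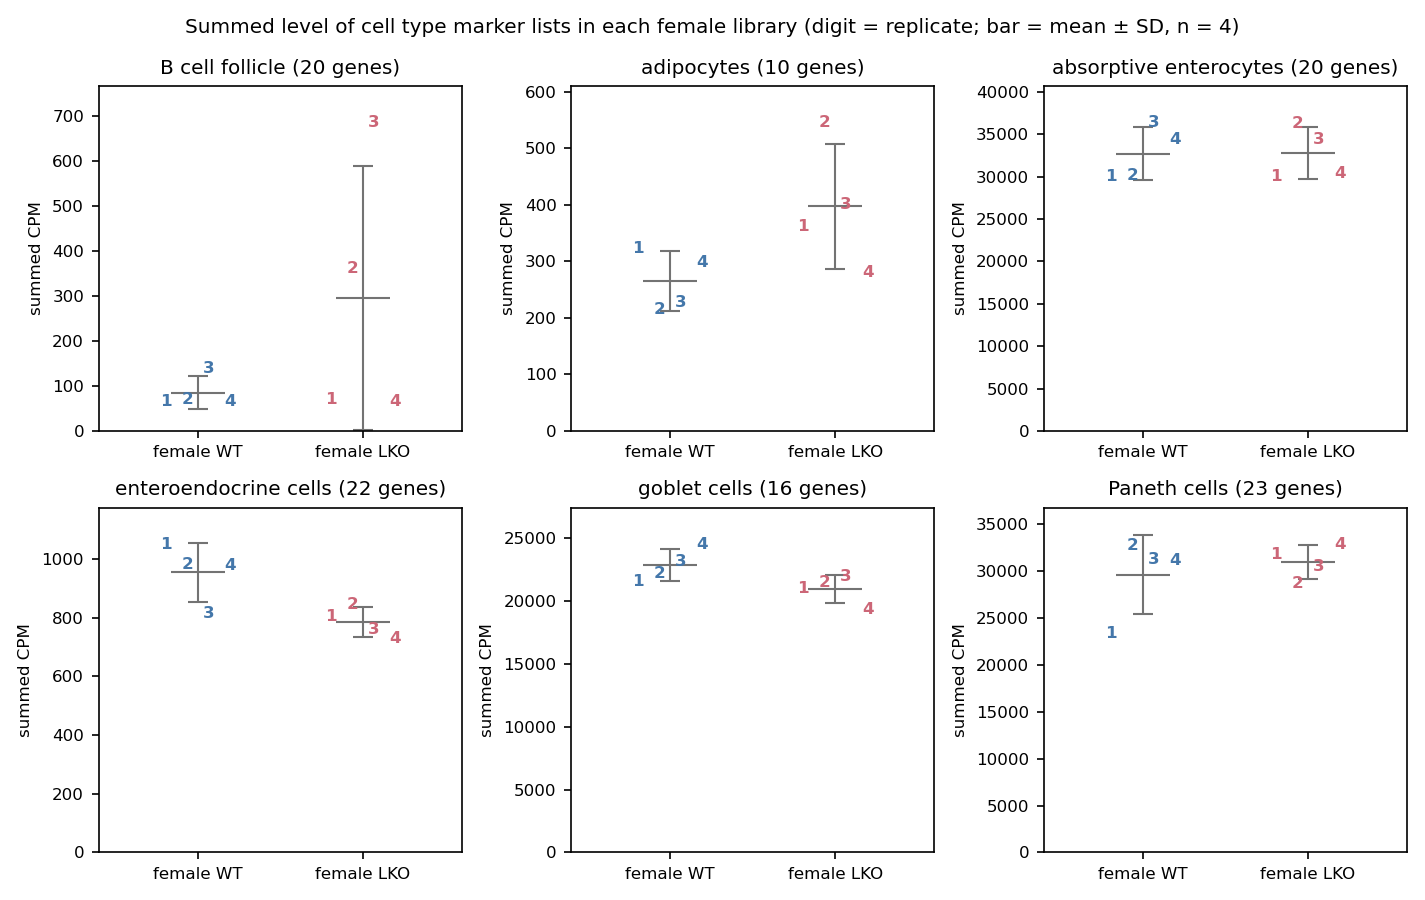
Summed level of 6 cell type marker lists in each of the 8 female libraries (y axis, CPM from 0, x axis, genotype). Digits are replicate numbers, and bars are the mean and SD of 4. LKO replicates 2 and 3 reach 361.5 and 684.6 CPM for the B cell follicle, where the other 6 libraries lie between 65.4 and 139 CPM.

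Males of the series, 4 WT and 4 LKO libraries that share no sample with the females, were used to see whether the female differences were particular to females. Of the 35 genes taken from the calls in females, 35 had the same sign in males, where 54.3% of 15070 genes tested in both sexes did, and 16 had an unadjusted male p below 0.05 (5.29% of all genes tested in males). The test of the difference between the sexes, the interaction of genotype and sex over 16 libraries, passed 0 of 15598 genes under edgeR (0% called) and 0 under DESeq2. At an unadjusted p below 0.05 it had 879 genes (5.64%) under edgeR. The female values that chose the 35 genes are part of this contrast, so its p is not read for them. The smallest adjusted p was 0.845 under edgeR and 0.0634 under DESeq2. Without female WT replicate 1 edgeR passed 1 gene, Itln1, named here after its value was seen (difference of log2 fold changes -0.64, adjusted p 0.035).

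Akr1c14 had a log2 fold change of -0.72 in males (SE 0.12) and -0.85 in females. Acadl had 0.51 in males (SE 0.09) and 0.37 in females, and Esrrg -1.07 in males (SE 0.19) and -1.14 in females. Several serine and synthetase genes, picked for their female values, had values nearer 0 in males. Phgdh had 0.35 in males (SE 0.17), Mthfd2 0.13 (SE 0.13), Shmt2 0.02 (SE 0.08) and Cars 0.07 (SE 0.08). None of them passed the interaction test, whose p is not read for genes picked in this way. Of the 20 cytosolic synthetases 0 had an unadjusted p below 0.05 in males. The cholesterol list had a male median of -0.13, with 20 of 22 below 0 and 6 lower at an unadjusted p below 0.05 (2.28% of all genes in males). The B cell follicle and adipocyte lists, high in female LKO, had male medians of -0.58 and -0.42. In males 0 of 15 and 0 of 10 of their tested members lay above 0.

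**Figure D5:**
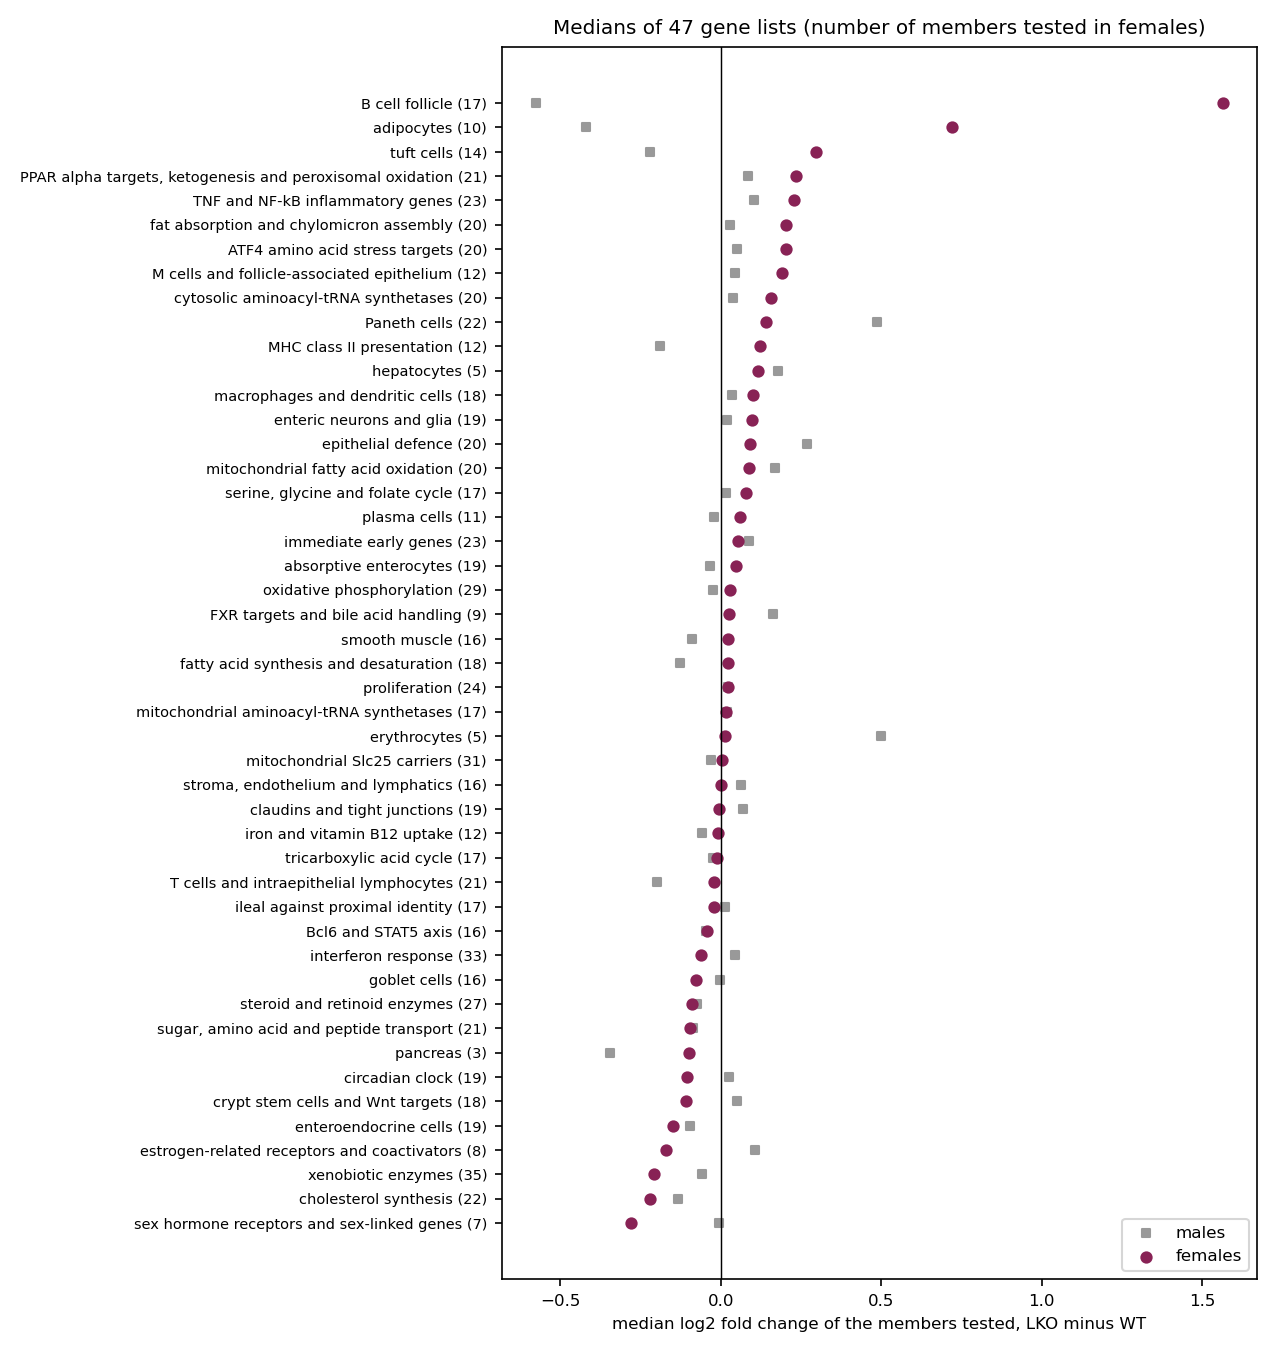
Median log2 fold change of LKO against WT (x axis) over the tested members of 47 gene lists (y axis, with the number of members), in females (circles) and males (grey squares), 4 animals per group. The cholesterol and xenobiotic lists lie at -0.22 and -0.21 in females, and the B cell follicle list, led by LKO replicates 2 and 3, at 1.56.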

How the data were processed

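RNA from the ileum of each mouse was sequenced from polyadenylated, strand-marked libraries. The deposited file holds whole-number raw counts per gene, made by the authors with STAR 2.5.2 on mm10 and HOMER 4.10 over exons, with 1 RefSeq transcript kept per gene and reads of several positions dropped, so that near-identical genes are undercounted. The strand setting was not given in the sources used here. A replicate is a separate sample by its label, and where animals share a litter the p-values measure the spread between these samples.

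Counts were tested in R 4.3.3 with edgeR 4.0.16 (filterByExpr, TMM scaling, robust quasi-likelihood fit on the 8 female libraries, Benjamini-Hochberg adjustment over all genes tested, threshold 0.05). DESeq2 1.42.0 and limma 3.58.1 were alternatives, with other scalings, filters and left-out libraries. The scripts were tested on simulated data. The males were fitted separately, and the interaction with sex was fitted on 16 libraries.

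Named genes were all edgeR calls, up to 15 further higher and 15 further lower DESeq2 calls without overlap in the order of the edgeR p, the bile acid list, Bcl6, Xist and Ddx3y, and up to 5 members of each gene list by p, with a mean of at least 1 CPM. Of the genes picked in this way 2 are not reported here. Of 47 gene lists 45 came from general knowledge and 2, of synthetases, were added after the values were seen. The comparison and the lists were chosen with earlier results of these data known. Coordinates are 1-based, as in the deposited table (mm10).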

Additional observations from a re-analysis of the deposited data

Results flagged for a closer look

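In 15 of 304 groups of 4 libraries checked, 1 library stood far from the other 3 (gap over range above 0.829). Chance gives about 1 in 20 groups, so the number of such groups carries no weight of its own.

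Among single genes, LKO replicate 1 was the high library for Slc6a9 (30.19 CPM, the others 29.27 to 29.36), Aars (159.8 CPM, the others 147.1 to 147.9) and Exph5 (42.21 CPM, the others 35.29 to 36.18). LKO replicate 3 was the low library for Akr1c12 (49.72 CPM, the others 60.08 to 61.47) and Nfkbia (112.7 CPM, the others 130.7 to 133.7). LKO replicate 2 was high for Cidec (70.39 CPM, the others 39.29 to 44.47). In WT, replicate 2 was high for Mars (61.31 CPM, the others 52.34 to 53.23), replicate 3 for Aldh1l1 (214.5 CPM, the others 184.2 to 187.9) and replicate 4 for Nr0b2 (0.7246 CPM, the others 0.05622 to 0.1683), and WT replicate 4 was low for Icam1 (15.05 CPM, the others 22.21 to 22.44).

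Among summed lists, LKO replicate 1 was high for mitochondrial fatty acid oxidation (2925 CPM, the others 2627 to 2645) and for the mitochondrial synthetases (607.1 CPM, the others 495.7 to 512.5). WT replicate 3 was high for the B cell follicle (139 CPM, the others 65.42 to 70.39) and for the Bcl6 and STAT5 axis (1310 CPM, the others 1220 to 1232). LKO replicate 4 was high for the list of sex hormone receptors and sex-linked genes (947.4 CPM, the others 710.2 to 740.6).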

How the results depend on the processing

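The number of genes called by edgeR, 6 as reported, was 10 with its newer quasi-likelihood method, 15 without a filter, 12 with all 16 libraries in the fit (4 shared with the 6) and 1 with a minimum absolute log2 fold change of 1. It was 154 with DESeq2 and 0 with limma-voom, where 732 genes were higher and 1093 lower at an unadjusted p below 0.05. With the title number as covariate it was 6 (2 shared) and with sets of title numbers as a factor 4 (0 shared). With 1 library left out it lay between 0 and 4, without LKO replicates 2 and 3 it was 3, and without these and WT replicate 3 it was 2. The DESeq2 count of 154 lay between 62 and 397 with 1 library left out, and was 93 and 63 in those 2 smaller sets (48 and 34 shared). The last 2 sets were chosen after seeing the data.

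With the replicate number as a block 15 genes passed (7 higher, 8 lower, 5 shared with the 6), but the numbers did not pair the samples: deviations of same-numbered libraries correlated at 0.204, -0.0653, 0.258 and -0.00238, and not every library correlated best with its own number.

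The interaction with sex passed between 0 and 1 genes with 1 female library left out. The ATF4 median was 0.127 under voom, and the PPAR alpha median 0.104 with the title number as covariate and 0.0955 to 0.294 with 1 library left out. The fat absorption median was 0.0318 with the title number as covariate and 0.0673 with the sets as factor. The serine median lay between 0.00856 and 0.093 with 1 library left out. Without LKO replicates 2 and 3, and without these and WT replicate 3, the medians were 0.176 and 0.17 (fatty acid oxidation), -0.0145 and 0.0479 (PPAR alpha), -0.0461 and -0.0112 (fat absorption), 0.34 and 0.226 (adipocytes) and -0.32 and 0.0326 (B cell follicle). Of the single-gene values 2208 kept their side of the threshold, with the same direction or a change of sign within 2 SE. Another 94 passed it newly, 62 lost it and 2 changed sign by more than 2 SE. Of genes with a call or an unadjusted p below 0.05 as reported, 0 changed sign. Weak values did change sign in some fits: Slc10a2 kept its direction in 18 of 23 and Gpbar1 in 18 of 22. The cause of these changes was not tested. Depth limits genes under about 1 CPM, such as Nr0b2.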
